A study of Drosophila melanogaster with 2 samples.

Results

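The mitosis, kinetochore and cytokinesis genes described here are 36 genes that were listed by symbol and all found among the 17753 genes of the data. They fall into 9 groups by role, from the kinases that start mitosis to the proteins that cut the cell apart, and lie on chromosome arms 2L (9 genes), 2R (10), 3L (5), 3R (8) and X (4). The data are 2 single-cell RNA libraries of medulla neuroblasts (NBs), the neural stem cells of the fly optic lobe, each made from the pooled brains of 120 wandering larvae of instar 3 raised at 25 °C. All larvae were untreated and carried the transgenes E(spl)mgammaGFP and, over the balancer TM6B, SoxNGal4 with UAS-RedStinger, and live cells were sorted for both GFP, which follows an E(spl) gene of NBs, and the red nuclear protein that SoxNGal4 drives in medulla cells. The libraries are replicates of 1 condition, so the comparisons are between groups of cells that each library holds.

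Medulla NBs divide again and again and express a series of transcription factors as they age, and a cell was placed in the stage of the factor that was highest relative to the upper levels of that factor in its library. The 7 stages, from young to old, are hth, ey, slp1, D, B-H1, tll and gcm. NBs were cells with at least 1 dpn UMI (a unique molecular identifier, which marks 1 captured RNA molecule) and under 10% mitochondrial UMIs, and dpn-negative cells were cells of the same sort under the same limit with no dpn UMI. Library 1 gave 776 NBs and 495 dpn-negative cells, and library 2 gave 2298 NBs and 1844 dpn-negative cells. Of the NBs, 577 in library 1 and 2094 in library 2 could be given a stage, with 74 and 98 cells in the hth stage, 112 and 417 in ey, 144 and 601 in slp1, 93 and 265 in D, 82 and 283 in B-H1, 19 and 96 in tll and 53 and 334 in gcm. Library 2 was deeper, with a median of 37671 UMIs per NB against 9845 in library 1, and the 36 genes together held 557826 UMIs of its NBs and 90958 of those of library 1. Levels are given as CPM, in which the UMIs that a gene has in a set of cells of a library are scaled by all UMIs of that set, library 1 first, and are therefore shares of the RNA of those cells and not molecules per cell.

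At the start of mitosis condensin and topoisomerase II compact and untangle the chromosomes, while centrosomes mature and kinesins build a spindle between them. Kinetochores, built on centromeres that carry a special histone H3, attach the chromosomes to spindle fibres, and the spindle checkpoint holds back anaphase until all are attached. Separase then cuts the rings that hold sister chromatids, and the central spindle and the contractile ring divide the cell. Fly NBs divide asymmetrically, keeping one daughter as an NB and releasing the other as a ganglion mother cell (GMC), which in turn divides to give neurons.

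As a share of all UMIs, the summed level of the 36 genes was lowest in the hth stage and highest in the last stages. In library 1 the sum was 3041 CPM in hth, 4945 in ey, 5589 in slp1, 5861 in D, 6379 in B-H1, 6273 in tll and 6508 CPM in gcm. In library 2 it was 3034 CPM in hth, 5093 in ey, 5688 in slp1, 5756 in D, 6802 in B-H1, 6969 in tll and 6544 CPM in gcm. Dpn-negative cells had 2346 and 2210 CPM, below every stage of either library. Depth also differed between stages. The median cell had 7235.5 and 81818 UMIs in hth, 32122.5 and 82858 in ey, 29953.5 and 35638 in B-H1 and 14044 and 16223 in gcm. In library 2 this median fell at each stage from ey to gcm. The part of depth in the levels was not tested. The hth stage and the dpn-negative cells were also lowest cell by cell, after each cell was thinned to 2000 UMIs. The median cell of the hth stage then had 7 and 6 UMIs of the 36 genes, that of B-H1 13 and 14, and that of gcm 13.5 and 13, while the median dpn-negative cell had 5 and 3, with 184 and 1213 dpn-negative cells left out as too shallow.

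**Figure D1:**
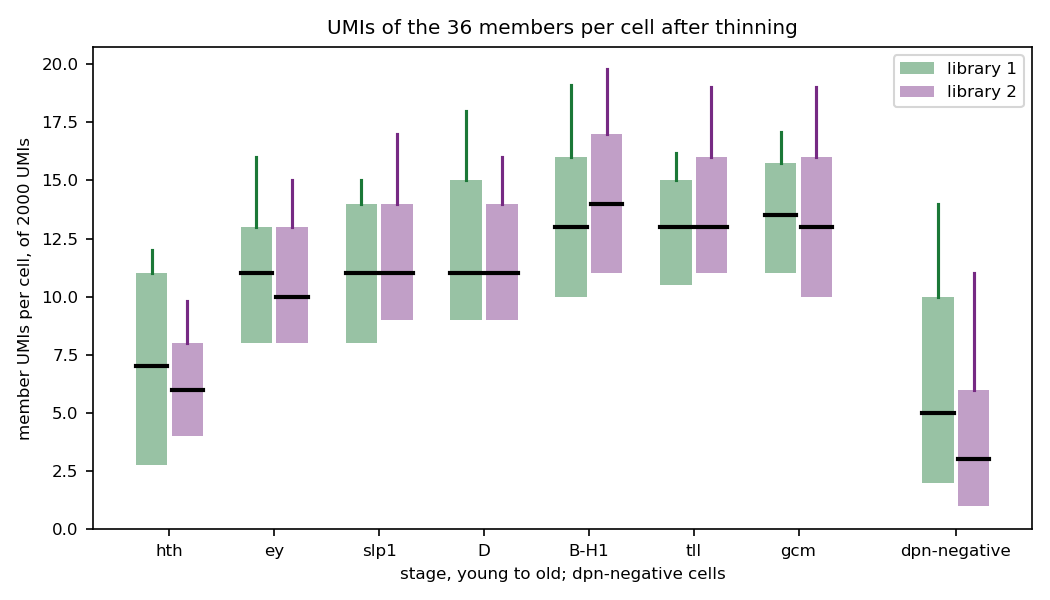
UMIs of the 36 genes per cell (vertical axis, of 2000 UMIs drawn from each cell) by stage, young to old, and in dpn-negative cells; boxes run from the lower to the upper quartile, black lines are medians and thin lines reach up to the 90th percentile, in green for library 1 and purple for library 2. Medians were 7 and 6 in the hth stage and 13.5 and 13 in gcm, and the quartiles of neighbouring stages overlap.

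The first comparison asked whether these genes were higher in NBs than in the dpn-negative cells of the same sort. Of the 36 genes, 35 were higher and 1, tacc, was lower in NBs at an adjusted p under 0.05 in edgeR's quasi-likelihood test on UMIs summed per library and group. Among all 7883 genes tested, 26.1% were called higher and 34.9% lower. The median log2 fold change was 1.44 over the 36 genes and -0.04 over all genes, and each of the 36 had the same sign in both libraries. The largest log2 fold change was that of a centromere gene: cid, the centromeric histone, had 29.2 and 33.9 CPM in NBs, against 8.73 and 7.09 CPM in dpn-negative cells, a log2 fold change ± SE of 1.95 ± 0.18, adjusted p = 2.24e-06. Every stage of both libraries lay above both dpn-negative values.

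Of the central spindle proteins, tum, the Rac GTPase activator of centralspindlin, had 151 and 211 CPM in NBs, against 43.6 and 68.4 CPM in dpn-negative cells (1.76 ± 0.11, adjusted p = 1.45e-07). Its partner kinesin pav had 158 and 173 CPM in NBs, against 45.2 and 56.3 CPM in dpn-negative cells (1.70 ± 0.11, adjusted p = 1.39e-07). Within each library all stages lay above the dpn-negative cells for both genes, although tum in the hth stage of library 1 (63.6 CPM) was below the dpn-negative cells of library 2 (68.4 CPM). Of the genes of anaphase control, pim, the securin that keeps separase shut, had 75.9 and 84.0 CPM in NBs, against 19.0 and 26.7 CPM in dpn-negative cells (1.74 ± 0.17, adjusted p = 2.71e-06), and thr, the separase itself, had 30.8 and 29.9 CPM in NBs, against 11.01 and 9.07 CPM in dpn-negative cells (1.64 ± 0.19, adjusted p = 1.52e-05). The passenger protein borr, the fly Borealin, had 208 and 259 CPM in NBs, against 57.3 and 78.2 CPM in dpn-negative cells (1.63 ± 0.13, adjusted p = 5.73e-07). None of these 3 overlapped between stages and dpn-negative cells, a comparison not made over all genes.

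The exception, tacc, encodes a centrosomal partner of the microtubule polymerase msps, and had 178 and 129.8 CPM in NBs, against 207 and 161 CPM in dpn-negative cells (-0.35 ± 0.097, adjusted p = 0.00839). Within each library all stages were below the dpn-negative cells, and the call was lost without the library in the model and with 2 other settings. Among the genes called higher, those that rose least were cnn, which builds the matrix around centrioles (0.58), the checkpoint kinase Bub1 (0.65) and msps (0.72), and the last gene of the spindle poles, asp, which focuses microtubules there, was at 1.08. In 32 of the 36 genes, a count not made over all genes, every stage was above the dpn-negative cells in both libraries. The other 4 were tacc, cnn, Cap-G and Top2. Of these, Cap-G and Top2 fell short only in the hth stage of library 2, where Cap-G had 30.3 CPM, against 37.6 CPM in dpn-negative cells, and Top2 had 185 CPM, against 212 CPM.

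The dpn-negative cells were shallow, with medians of 2525 and 978 UMIs, and the deepest 10% of them held 43.4 and 56.3% of their UMIs. They had 205.3 and 146 CPM of mira, a marker of NBs, against 732 and 659 CPM in NBs. They also had 9010 and 5284 CPM summed over 5 genes of GMCs and new neurons, against 2196 and 1093 CPM in NBs, and 6668 and 4938 CPM over 8 neuron genes, against 1507 and 1009 CPM in NBs. Of the first sum, pros gave 6195 and 3195 CPM and fne 2324.5 and 1565 CPM. By contrast dap had 108 and 127 CPM, against 2612 and 2155 CPM in the gcm stage. Likewise nerfin-1, tap and the neuron gene elav were below the gcm stage in both libraries, while the other neuron genes were above it. In a stricter setting NBs needed 2 dpn UMIs and dpn-negative cells had to lack mira. The median log2 fold change of the 36 genes was then 2.40, again with 35 higher and 1 lower. Among the 7836 genes tested there, 2321 were higher and 2987 lower. The median of the 36 genes was 0.98 when the mitochondrial limit was 20%.

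The second comparison set the youngest stage, hth, against the mean of the 5 middle stages ey, slp1, D, B-H1 and tll. Of the 36 genes, 34 were lower in the hth stage and none was higher, with none higher at an unadjusted p under 0.05 or in DESeq2 either, beside 23.0% lower and 29.6% higher among all genes. The median was -0.97 over the 36 genes, against 0.06 over all genes. All of the genes except tacc had a log2 fold change below 0 in both libraries, and that of Bub1 was 0.41 after thinning to 2000 UMIs. The condensin subunit Cap-G differed most, with 39.7 and 30.3 CPM in the hth stage, against 71.6 to 197 CPM in the middle stages of library 1 and 64.4 to 158 CPM in those of library 2, a log2 fold change of -1.65 ± 0.14, adjusted p = 3.11e-06. Its values in the hth stage did not overlap those of any middle stage.

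Genes of the centromere, the contractile ring and the chromosome axis were also among those that differed most. Of the centromere, cid had 10.5 and 14.8 CPM in the hth stage, against 27.0 to 43.6 CPM and 31.4 to 55.5 CPM in the middle stages (-1.50 ± 0.18, adjusted p = 3.97e-05), and Cenp-C, which links centromeres to kinetochores, had 45.7 and 31.9 CPM, against 62.5 to 106 CPM and 64.6 to 124 CPM (-1.25 ± 0.13, adjusted p = 1.41e-05). Anillin, encoded by scra, is the scaffold of the contractile ring and had 71.9 and 67.2 CPM in the hth stage, against 112 to 288 CPM and 129 to 288 CPM (-1.46 ± 0.083, adjusted p = 4.56e-07). Top2, the enzyme that untangles sister chromatids, had 288 and 185 CPM, against 399 to 775 CPM and 360.1 to 709.7 CPM (-1.26 ± 0.092, adjusted p = 1.43e-06). The passenger protein borr had 84.6 and 129 CPM, against 161 to 249 CPM and 254 to 326 CPM (-1.23 ± 0.13, adjusted p = 1.42e-05). In each of these genes every middle stage lay above both values of the hth stage, a comparison not made over all genes.

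The 2 genes not called were tacc, at -0.11 with its sign turned under 5 other settings (0.0056 in DESeq2 to 0.59 after thinning), and Bub1 (-0.25, but 0.41 after thinning). The genes called with the least difference were feo (-0.28), Nuf2 (-0.42), thr (-0.56) and Klp3A (-0.60), whose calls were lost in DESeq2. Their calls were also lost with RLE size factors, without the library block, with the 20% mitochondrial limit, with both stricter NB definitions and after thinning. Genes of other cells were higher in the hth stage of library 1 than in that of library 2: the 5 genes of GMCs and new neurons summed to 10296 CPM in library 1 and 1136 CPM in library 2, against 1009 to 3183 CPM and 649 to 2058 CPM in the middle stages. The 8 neuron genes summed to 2766 and 432 CPM, against 559 to 3022 CPM and 413 to 2164 CPM. Of the neuroepithelium, from which NBs arise, 6 genes summed to 741 and 696 CPM in the hth stage, against 49.6 to 472 CPM and 41.0 to 334 CPM. Dpn-negative cells had 701 and 553 CPM of them, of which Fas2 alone gave 574 and 411 CPM. There shg, Ocho and pnt were below the hth stage in both libraries, with Ocho at 10.25 and 16.6 CPM, against 139 and 236 CPM in hth. The sums of the hth stage were made up differently in the libraries, with Fas2 at 271 and 14.7 CPM and pnt at 83.1 and 205.5 CPM. Mira was at 341 and 276 CPM in the hth stage, against 605 to 1215 CPM and 569 to 1138 CPM. In the hth stage the deepest 10% of cells held 48.18 and 18.25% of the UMIs. Without the deepest 5% of cells 34 genes were again lower, with a median of -1.04, beside 1449 lower of 7309 genes. The summed level of the 36 genes in the hth stage was 3041 and 3034 CPM. The part of the other cells' genes in these values was not tested. When each NB also needed a mira UMI, 30 genes were lower in the hth stage, with a median of -0.78, beside 1576 lower of 7773 genes. After thinning to 2000 UMIs 11 were lower, with a median of -0.80, beside 209 lower of the 4057 genes tested in that fit. There BubR1 went from -0.76 to -0.07, Klp10A from -0.62 to -0.04 and Klp61F from -0.82 to -0.14. Other genes differed more, with aurA going from -0.61 to -1.66 and thr from -0.56 to -1.17.

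**Figure D2:**
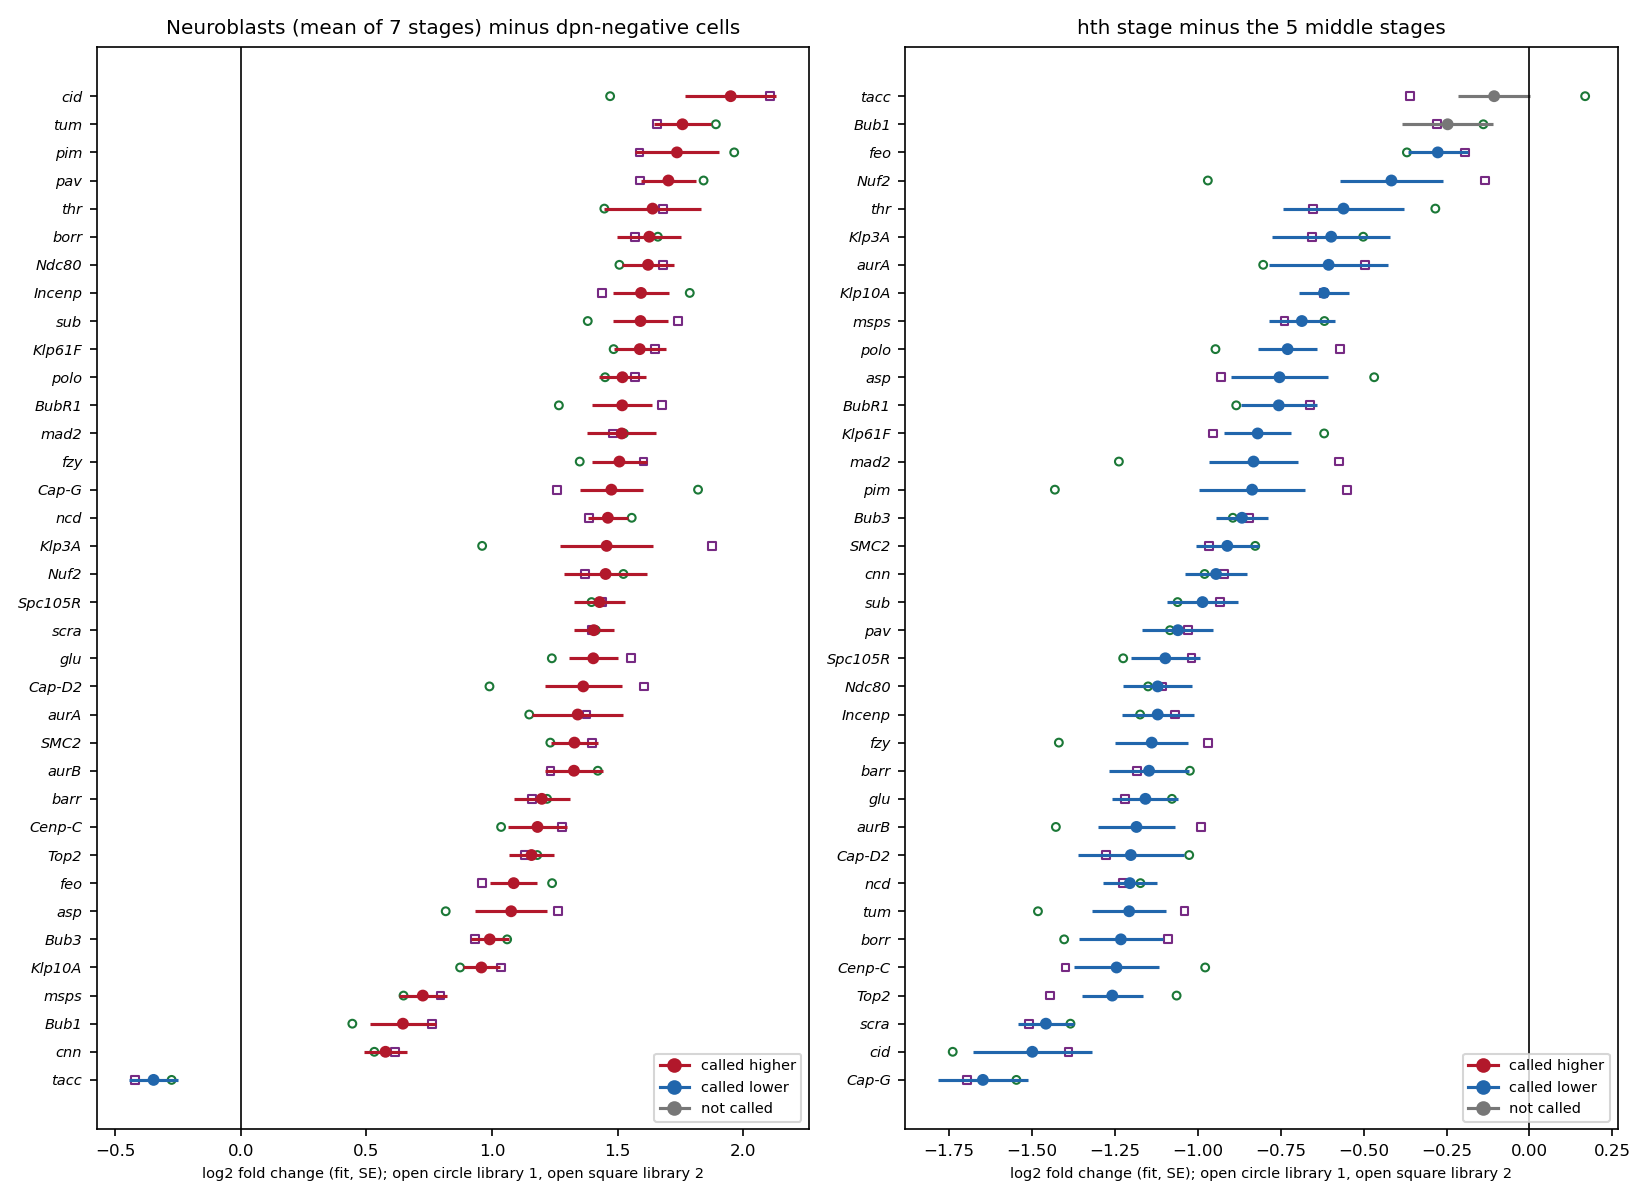
Log2 fold change of each of the 36 genes (horizontal axis) between NBs and dpn-negative cells (left) and between the hth stage and the 5 middle stages (right); filled points are the fit with its standard error, red where called higher, blue where called lower and grey where not called, and open circles and squares are the values within library 1 and library 2. In the left panel 35 genes lie right of 0 with tacc left of it, and in the right panel the fitted value of every gene lies left of 0, although those of the uncalled tacc and Bub1 turned to the right under other settings.

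The third comparison set the oldest stage, gcm, against the same 5 middle stages, so it shares those cells with the comparison of the hth stage. Here the genes divided: 12 were higher in gcm, 6 were lower and 18 were not called, beside 14.7% higher and 17.3% lower among all genes. The lower calls were thus about as frequent as among all genes. The median log2 fold change of the list was 0.06, against -0.05 over all genes. All 18 called genes had the same sign in both libraries, and 8 of the others had opposite signs. Without the library as a block in the model 7 were called higher and 1, cid, lower, beside 561 higher and 753 lower of 7883 genes. With a mitochondrial limit of 20%, 9 were higher and 1, tacc, was lower, beside 894 and 1072 of 8092 genes. The calls of scra, cnn, barr, Cap-G and Top2 held in every fit, and each other call was lost in at least 1 fit. Over all 7 stages 30 genes differed between stages, beside 55.1% of all genes, and the 6 that did not were aurA, Bub1, Nuf2, thr, Klp3A and tacc. After thinning to 2000 UMIs the numbers were 7 higher, none lower and 10 that differed between stages. In that fit 345 of 4057 genes were higher in gcm and 225 were lower. The number that differed between stages there is not given over all genes.

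Of the mitotic kinases, neither was called in gcm. Polo kinase drives centrosome maturation and many later steps, and polo (FBgn0003124, 3L) in library 1 had 131 in hth, 226 in ey, 253 in slp1, 242 in D, 237 in B-H1, 267 in tll and 259 CPM in gcm. Library 2 had 169.5 in hth, 248 in ey, 257 in slp1, 254 in D, 273 in B-H1, 269.5 in tll and 298 CPM in gcm. The hth stage was lowest in both (-0.73 ± 0.090, adjusted p = 4.88e-05), and the later stages lay close together. The second kinase, aurA (FBgn0000147, 3R), acts at centrosomes and in the asymmetric division of NBs, and was low throughout, at 15.2 to 34.1 CPM and 25.2 to 45.0 CPM over the stages. In the gcm stage of library 1 it rested on 10 UMIs, with an exact Poisson 95% interval of 7.30 to 28.0 CPM that covers counting error only, so its values there (15.2 CPM, and 38.8 CPM in library 2) do not settle a direction.

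The chromosomal passenger complex corrects faulty attachments and then moves to the central spindle. Its 3 genes summed in library 1 to 351 in hth, 809 in ey, 879 in slp1, 916 in D, 940.3 in B-H1, 766 in tll and 726 CPM in gcm. Library 2 had 477 in hth, 933 in ey, 995 in slp1, 932 in D, 1137 in B-H1, 1107 in tll and 860.5 CPM in gcm. The sum was highest in the B-H1 stage in both libraries and lower again in gcm. Of its genes one was called: borr (FBgn0032105, 2L) had 137 and 191 CPM in gcm, against 161 to 249 CPM and 254 to 326 CPM in the middle stages (-0.58 ± 0.13, adjusted p = 0.00438), with no overlap within a library. The kinase aurB (FBgn0024227, 2L) and its scaffold Incenp (FBgn0260991, 2R) were not called, with log2 fold changes of -0.20 ± 0.11 and 0.05 ± 0.10. Over the stages aurB ran from 139 to 398 CPM in library 1 and from 186 to 418 CPM in library 2, and Incenp ran from 127 to 301 CPM in library 1 and from 162 to 401 CPM in library 2, with the hth stage lowest for both genes in both libraries.

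The spindle checkpoint genes went in both directions. BubR1 (FBgn0263855, 2R), part of the complex that blocks anaphase, had 57.9 and 59.4 CPM in gcm, against 73.4 to 110 CPM and 76.9 to 89.7 CPM in the middle stages (-0.53 ± 0.12, adjusted p = 0.00541). Another part of that complex, mad2 (FBgn0035640, 3L), had 117 and 159.8 CPM in gcm, against 132 to 194 CPM and 189.8 to 215 CPM (-0.39 ± 0.14, adjusted p = 0.0466). Both were below every middle stage of their library, but the calls depended on the settings. That of mad2 held only with no filter, with a mira UMI required and with 2 dpn UMIs, and was lost in DESeq2 and all other fits. That of BubR1 was lost without the library block, with the 20% mitochondrial limit, with 2 dpn UMIs, with a single stage factor and after thinning. Bub3 (FBgn0025457, 3R), which brings Bub1 and BubR1 to kinetochores, was by contrast higher, with 301 and 387 CPM in gcm, against 213 to 288 CPM and 289.7 to 389 CPM (0.30 ± 0.073, adjusted p = 0.00864), and the tll stage of library 2 slightly above its gcm stage. Bub1 (FBgn0031696, 2L) was not called (0.29 ± 0.14) and ran from 29.3 to 50.2 CPM in library 1 and from 28.2 to 42.9 CPM in library 2, with gcm highest in library 1 and tll highest in library 2.

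Centromere and kinetochore genes diverged most. The histone cid (FBgn0040477, 2R) in library 1 had 10.5 in hth, 29.2 in ey, 27.0 in slp1, 34.2 in D, 43.6 in B-H1, 41.1 in tll and 9.13 CPM in gcm. Library 2 had 14.8 in hth, 31.7 in ey, 31.4 in slp1, 42.1 in D, 55.5 in B-H1, 47.1 in tll and 22.4 CPM in gcm. It peaked in B-H1 in both libraries and had the lowest log2 fold change of the 36 genes in gcm (-0.99 ± 0.18, adjusted p = 0.0016), on 6 UMIs in library 1 (exact Poisson 95% interval 3.35 to 19.9 CPM) and 126 in library 2 (18.7 to 26.7 CPM). The log2 fold change was -1.81 within library 1 and -0.82 within library 2. The outer kinetochore scaffold Spc105R (FBgn0037025, 3L) went the other way, with 43.4 in hth, 68.7 in ey, 82.2 in slp1, 102 in D, 120.2 in B-H1, 135 in tll and 151 CPM in gcm in library 1. Library 2 had 37.0 in hth, 59.9 in ey, 71.4 in slp1, 76.8 in D, 88.7 in B-H1, 97.5 in tll and 116 CPM in gcm. It climbed without a step back from hth to gcm in both libraries, and was called higher in gcm (0.64 ± 0.091, adjusted p = 3.44e-04). Cenp-C (FBgn0266916, 3R) was also higher in gcm, at 136 and 114.5 CPM (0.53 ± 0.11, adjusted p = 0.00371), although the tll stage of library 2 had 124 CPM. Ndc80 (FBgn0030500, X) and Nuf2 (FBgn0031886, 2L), partners in one microtubule-binding complex, were not called (0.23 ± 0.096 and -0.21 ± 0.16). Over the stages Ndc80 ran from 32.2 to 93.9 CPM in library 1 and from 39.2 to 108 CPM in library 2, and Nuf2 ran from 34.4 to 70.5 CPM in library 1 and from 68.9 to 83.1 CPM in library 2. The hth stage was lowest for both, but for Nuf2 in library 2 it came close to the others.

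**Figure D3:**
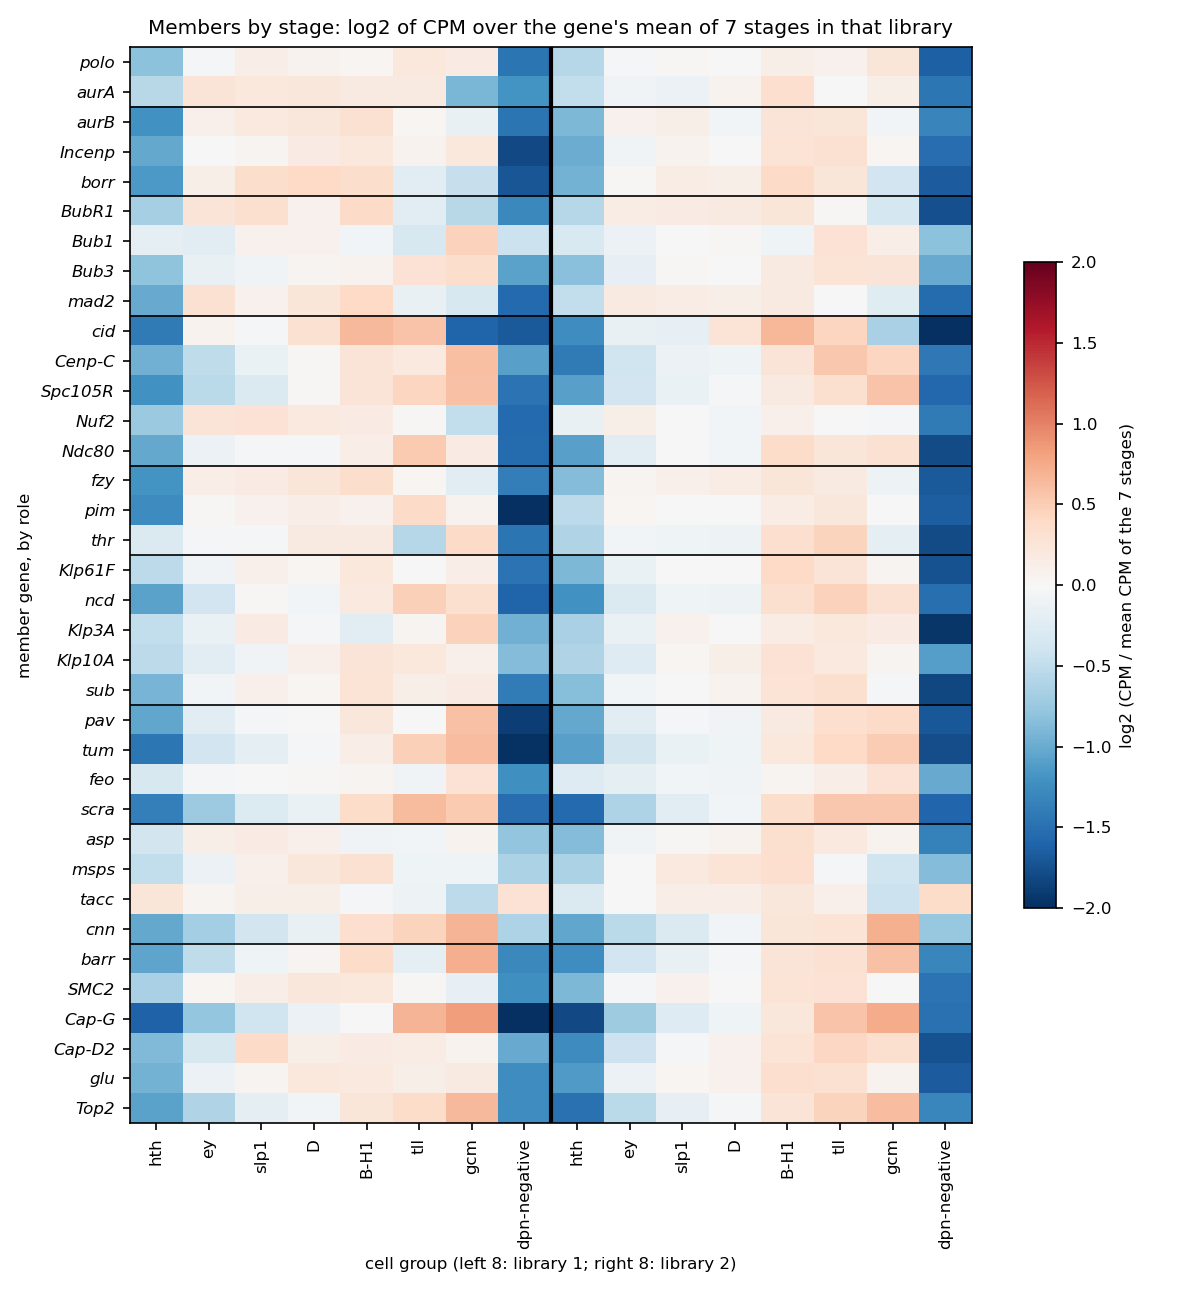
Level of each gene by stage and in dpn-negative cells, as log2 of its CPM over its mean CPM of the 7 stages of that library (colour, red above and blue below that mean), with library 1 in the left 8 columns and library 2 in the right 8; horizontal lines part the role groups. The hth column is the lowest of the stages for 31 genes in both libraries, a count not made over all genes. In the gcm column cid is blue while Cap-G, cnn and Top2 are red.

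None of the 3 genes of anaphase control was called in gcm. fzy (FBgn0001086, 2L), the Cdc20 protein that switches on the anaphase-promoting complex, in library 1 had 56.1 in hth, 140.1 in ey, 143 in slp1, 152 in D, 163 in B-H1, 132 in tll and 111 CPM in gcm. Library 2 had 87.2 in hth, 165 in ey, 172 in slp1, 176 in D, 188 in B-H1, 181 in tll and 149 CPM in gcm. It was highest in B-H1 in both libraries, and its difference in gcm missed the threshold (-0.26 ± 0.11, adjusted p = 0.0874). pim (FBgn0003087, 2L) had 80.7 and 84.4 CPM in gcm, within the middle stages of both libraries. thr (FBgn0003701, 2R) had 39.6 and 27.4 CPM in gcm, above every middle stage in library 1 and below every one in library 2.

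Among the spindle motors only ncd (FBgn0002924, 3R), a minus-end kinesin that bundles spindle fibres, was called in gcm. In library 1 it had 104 in hth, 168 in ey, 224 in slp1, 212 in D, 250.2 in B-H1, 305 in tll and 274 CPM in gcm. Library 2 had 114 in hth, 214 in ey, 248 in slp1, 246 in D, 329.5 in B-H1, 364 in tll and 326 CPM in gcm. The tll stage was highest in both libraries and gcm was close to B-H1, so the call (0.31 ± 0.073, adjusted p = 0.00746) is against the mean of the middle stages and not against its neighbours. Klp61F (FBgn0004378, 3L), the kinesin that pushes spindle poles apart, and Klp10A (FBgn0030268, X), which shortens microtubules, both peaked in B-H1 in both libraries and were not called (0.05 ± 0.098 and 0.06 ± 0.073). sub (FBgn0003545, 2R), a kinesin of the central spindle, and Klp3A (FBgn0011606, X), a kinesin that binds chromosomes and the central spindle, were not called either (-0.03 ± 0.10 and 0.30 ± 0.17). From the lowest to the highest stage Klp61F ran from 80.1 to 132 CPM in library 1 and from 53.6 to 131 CPM in library 2, and Klp10A ran from 181 to 311 CPM in library 1 and from 152 to 279 CPM in library 2. For sub the range was from 67.4 to 154 CPM in library 1 and from 81.0 to 184 CPM in library 2. For Klp3A it was from 58.4 to 113 CPM in library 1 and from 50.6 to 91.4 CPM in library 2. The lowest stage of each of these motors was hth in both libraries.

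The 4 genes of the central spindle and cytokinesis were all higher in gcm. Summed, in library 1 they had 346 in hth, 547 in ey, 629.9 in slp1, 668 in D, 791 in B-H1, 851 in tll and 979 CPM in gcm. Library 2 had 391 in hth, 599.8 in ey, 707 in slp1, 728 in D, 882 in B-H1, 991 in tll and 1039.6 CPM in gcm. In both libraries each stage had a higher sum than the one before it. tum (FBgn0086356, 2R) was likewise higher at each stage, with 263 and 333 CPM in gcm, against 132 to 241 CPM and 181 to 310.1 CPM in the middle stages (0.60 ± 0.099, adjusted p = 9.01e-04). pav (FBgn0011692, 3L) had 249.7 and 237 CPM in gcm, against 144 to 194 CPM and 158 to 229.9 CPM (0.49 ± 0.097, adjusted p = 0.00263). Both were above all middle stages of their library. feo (FBgn0030241, X), which bundles antiparallel microtubules in the midzone, had 198 and 183 CPM in gcm, against 156 to 169 CPM and 132 to 163 CPM (0.35 ± 0.090, adjusted p = 0.0117). scra (FBgn0261385, 2R) had 268 and 287 CPM in gcm, against 112 to 288 CPM and 129 to 288 CPM (0.60 ± 0.071, adjusted p = 1.06e-04), with its highest values in tll and not in gcm. Of these 4 calls only that of scra held in every fit. That of tum was lost without the library block, and that of pav with the 20% mitochondrial limit and after thinning. That of feo was lost without the block, with a single stage factor and after thinning.

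**Figure D4:**
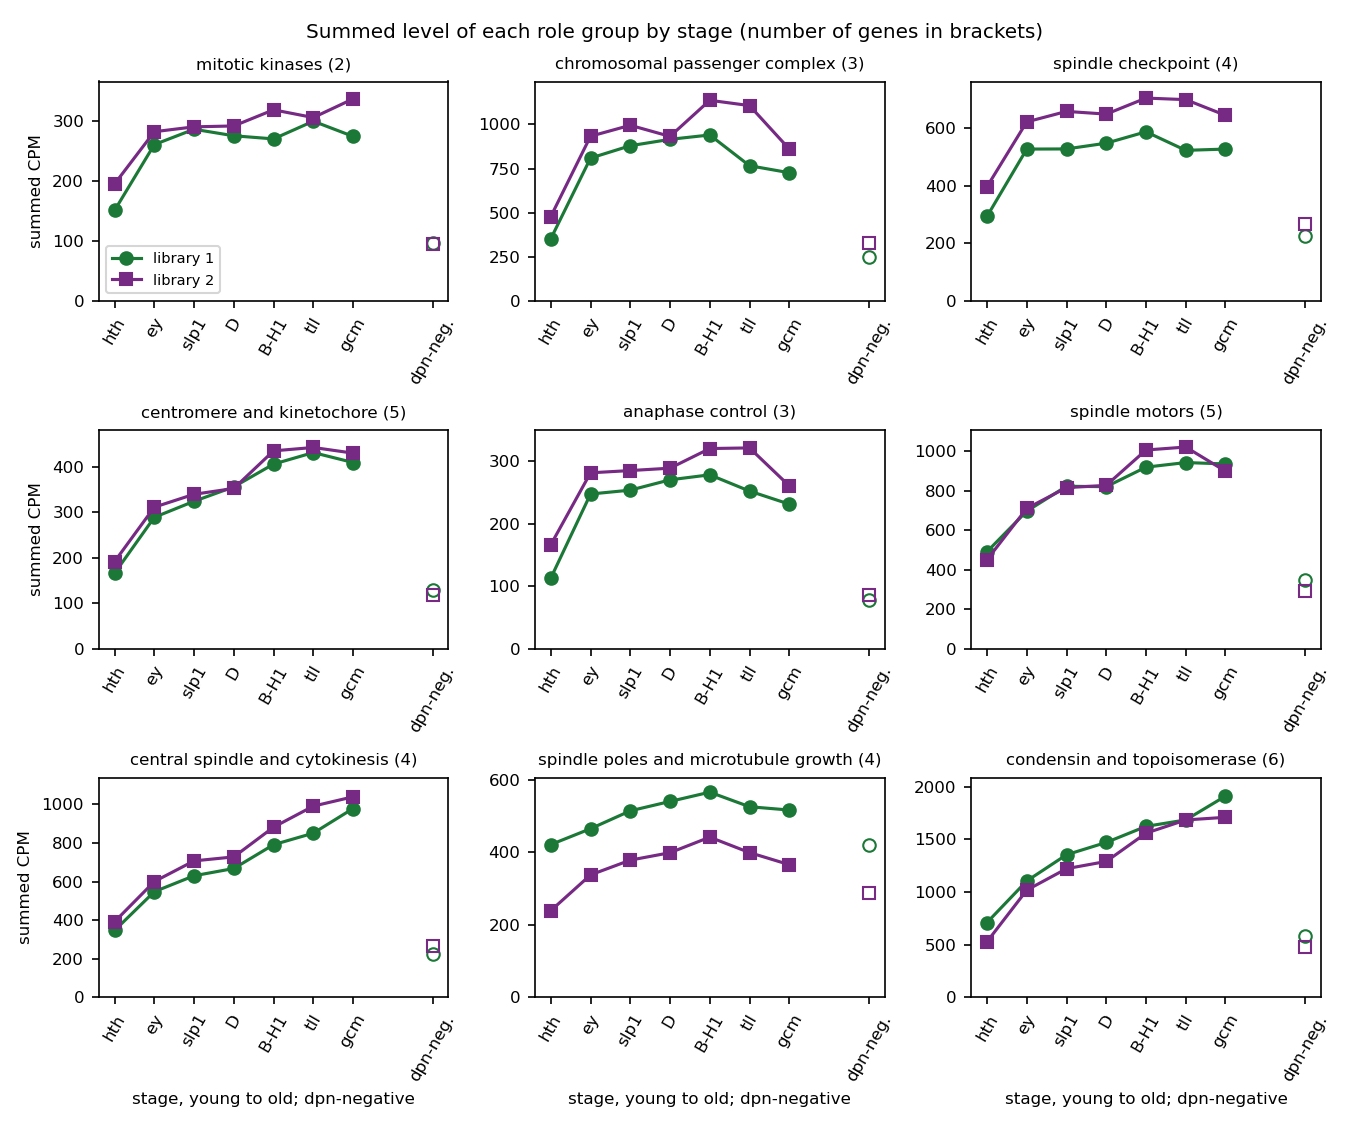
Summed CPM of each role group (vertical axis, from 0 in each panel) by stage, young to old, with dpn-negative cells at the right as open symbols, and library 1 in green circles and library 2 in purple squares. The central spindle group was higher at each stage than at the one before, up to 979 and 1039.6 CPM in gcm, while the passenger complex was highest in B-H1 at 940.3 and 1137 CPM.

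The spindle pole genes divided as well. Centrosomin, cnn (FBgn0013765, 2R), in library 1 had 55.4 in hth, 70.3 in ey, 86.9 in slp1, 101 in D, 142 in B-H1, 153 in tll and 179.6 CPM in gcm. Library 2 had 40.5 in hth, 57.6 in ey, 68.2 in slp1, 80.4 in D, 98.7 in B-H1, 101 in tll and 137 CPM in gcm. It increased at each stage in both libraries and was called higher in gcm (0.83 ± 0.082, adjusted p = 3.35e-05). tacc (FBgn0026620, 3R) had 117 and 93.0 CPM in gcm, against 158 to 183 CPM and 126 to 146 CPM in the middle stages (-0.50 ± 0.12, adjusted p = 0.00668), below all of them in both libraries. msps (FBgn0027948, 3R) had 146 and 74.5 CPM in gcm, against 144 to 191 CPM and 97.5 to 124 CPM (-0.35 ± 0.10, adjusted p = 0.0218), and its log2 fold change was -0.53 within library 2 and -0.09 within library 1, where gcm lay among the middle stages. The call of msps was lost with RLE size factors, without the block, with the 20% limit, with a single factor, without the deepest cells and after thinning. asp (FBgn0000140, 3R) was not called (0.02 ± 0.14) and ran from 53.9 to 77.9 CPM in library 1 and from 31.7 to 72.6 CPM in library 2, with hth lowest in both libraries.

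Condensin is a ring of a pair of long SMC arms closed by further subunits, and its genes did not change alike in gcm. The arm genes SMC2 (FBgn0027783, 2R) and glu (FBgn0015391, 2L), the fly SMC4, were not called (-0.16 ± 0.091 and 0.06 ± 0.091), and neither was the subunit Cap-D2 (FBgn0039680, 3R) (0.22 ± 0.14). Over the stages SMC2 ran from 152 to 279 CPM in library 1 and from 115 to 260.2 CPM in library 2, and glu ran from 162 to 359 CPM in library 1 and from 129 to 359 CPM in library 2. Cap-D2 ran from 35.9 to 86.3 CPM in library 1 and from 34.9 to 112 CPM in library 2, and as for the arms its lowest stage was hth. The subunit Cap-G (FBgn0259876, 2R) in library 1 had 39.7 in hth, 71.6 in ey, 93.1 in slp1, 113 in D, 122 in B-H1, 197 in tll and 219 CPM in gcm. Library 2 had 30.3 in hth, 64.4 in ey, 88.5 in slp1, 99.3 in D, 123 in B-H1, 158 in tll and 176 CPM in gcm. It increased at each stage in both libraries and had the highest log2 fold change of the 36 genes in gcm (0.92 ± 0.11, adjusted p = 1.09e-04). barr (FBgn0014127, 2L), which closes the condensin ring, had 111 and 116 CPM in gcm, against 46.9 to 86.4 CPM and 59.2 to 95.1 CPM (0.70 ± 0.10, adjusted p = 4.80e-04). Top2 (FBgn0284220, 2L) in library 1 had 288 in hth, 399 in ey, 526 in slp1, 578 in D, 711 in B-H1, 775 in tll and 944 CPM in gcm. Library 2 had 185 in hth, 360.1 in ey, 465 in slp1, 511 in D, 625 in B-H1, 709.7 in tll and 802 CPM in gcm. It too increased at each stage in both libraries and was called higher in gcm (0.71 ± 0.079, adjusted p = 6.76e-05). The differences between condensin subunits were not tested.

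**Figure D5:**
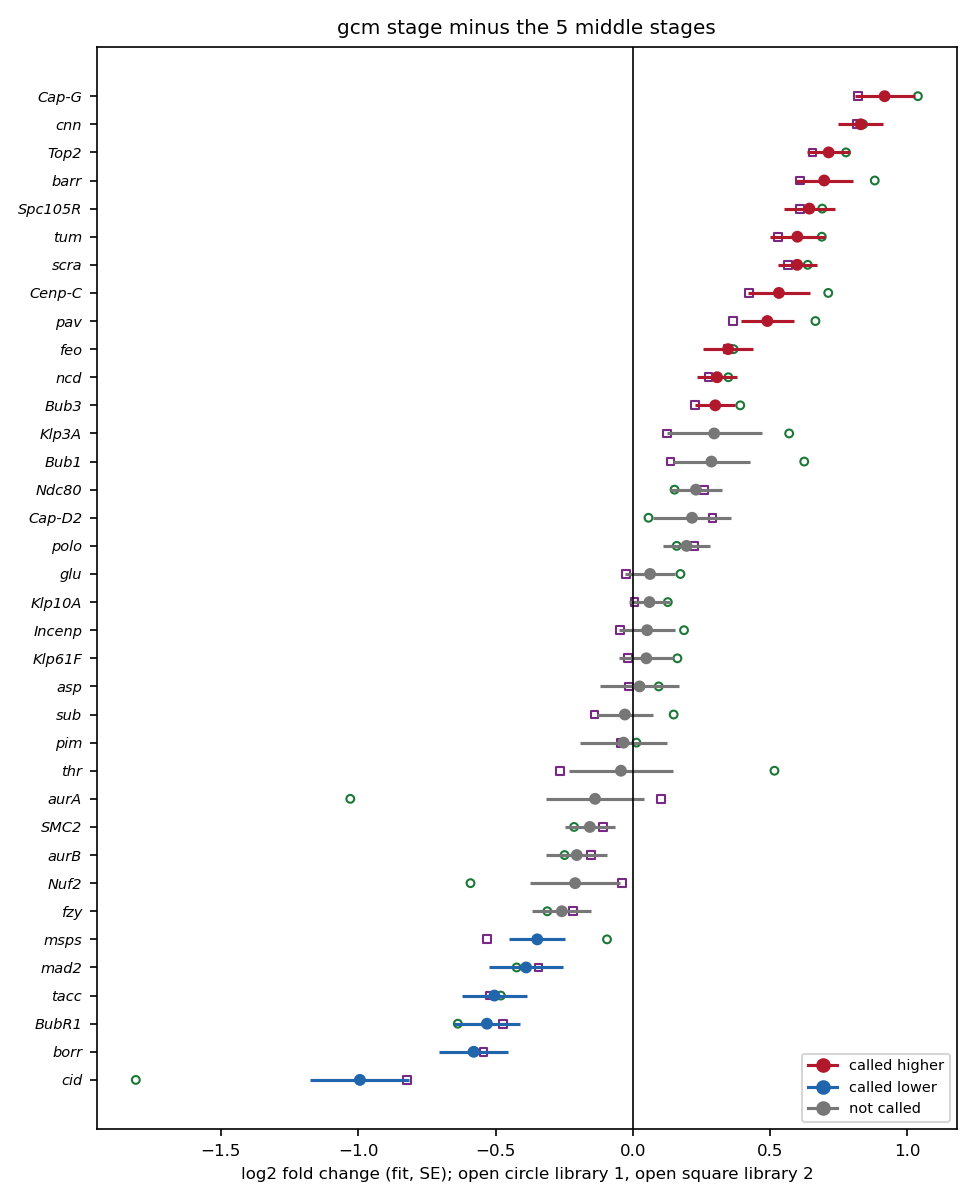
Log2 fold change of each of the 36 genes between the gcm stage and the 5 middle stages (horizontal axis); filled points are the fit with its standard error, red for the 12 genes called higher, blue for the 6 called lower and grey for the 18 not called, and open circles and squares are the values within library 1 and library 2. Cap-G at 0.92 and cid at -0.99 mark the ends, and the libraries lie furthest apart for aurA, cid and thr.

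Lists of other cell cycle genes were counted in the same fits. Of 37 genes of DNA replication, none was higher and 35 were lower in gcm than in the middle stages, with a median log2 fold change of -0.96. Their summed level was 3827 and 3957 CPM in gcm, against 5264 to 8810 CPM and 6965 to 9466 CPM in the middle stages, while that of the 36 mitosis genes was 6508 and 6544 CPM, against 4945 to 6379 CPM and 5093 to 6969 CPM. Of 78 further mitosis genes tested, 21 were higher and 3 lower in gcm, with a median of 0.23. In the hth stage both lists were low together with the 36 genes: 33 of 37 replication genes and 61 of 78 further mitosis genes were lower there, with medians of -0.86 and -0.67. Against dpn-negative cells 36 of 37 and 65 of 78 were higher in NBs, with medians of 1.42 and 1.06.

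The 5 genes of GMCs and new neurons summed to 6202 and 4942 CPM in gcm, but did not move together. Among them dap, an inhibitor of cyclin-dependent kinases, gave 2612 and 2155 CPM, against 6.71 to 912.5 CPM and 9.26 to 416 CPM in the middle stages, and nerfin-1, a transcription factor, gave 1775 and 1303 CPM, against 7.08 to 769 CPM and 2.90 to 294 CPM. In both genes the tll stage was the highest of the middle stages. The neuronal gene fne was at 135.5 and 87.6 CPM in gcm, against 184 to 284 CPM and 85.2 to 166 CPM, and pros at 1324 and 977 CPM, against 697 to 1293 CPM and 374 to 1054 CPM. The 8 neuron genes summed to 4632 and 3455 CPM, of which elav gave 4389 and 3373 CPM. By contrast nSyb and brp, markers of mature neurons, were at 6.09 and 2.31 CPM and at 1.52 and 1.96 CPM. CadN, of the same list, was above every middle stage, at 33.5 and 44.8 CPM. The part of all these genes in the values of the 36 genes was not tested. The glial gene repo was at 0 and 1.24 CPM in gcm. Among other glial genes loco was above every middle stage, at 48.7 and 40.4 CPM, while nrv2 and Eaat1 were below every one. Blood cell genes summed to 1.52 and 1.07 CPM. The tll stage, one of the middle stages, held 604 and 364 CPM of gcm itself, against 1311 and 1517 CPM in the gcm stage, beside 434 and 473 CPM of tll.

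The stage of the highest level was the same in both libraries for 18 of the 36 genes. It was gcm for 8 of these (Spc105R, pav, tum, feo, cnn, barr, Cap-G and Top2), B-H1 for 7 (aurB, BubR1, cid, fzy, Klp61F, Klp10A and msps) and tll for 3 (pim, ncd and scra). Between ey and B-H1, 30 genes were higher in B-H1 in both libraries. Between gcm and B-H1 the genes divided, with 14 higher in gcm in both libraries, 17 lower and 5 that went opposite ways. The tll stage of library 1 rests on 19 cells, so peaks there are less certain than others. None of these counts was made over all genes, so how far they are particular to the 36 genes is not known.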

How the data were processed

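The authors aligned the reads of each library to Ensembl BDGP6.22 and counted UMIs with Cell Ranger 3.0.1 (library 1) and 3.1.0 (library 2), and the deposited values are raw UMI counts per gene and cell, not normalized or pooled. The libraries held 42618478 UMIs in 6548 cells and 116712060 UMIs in 5343 cells and shared 9 barcodes, 4 of them among the cells used. No coordinates are given, since the annotation used here for chromosome arms is of a later build. The 36 genes, the other gene lists and the comparisons were chosen with earlier results of these data known.

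NBs had at least 1 dpn UMI and under 10% of UMIs on 38 mitochondrial genes, and the 5 deepest cells were taken out, after the study's methods. No doublet caller was run. A cell needed 2 UMIs of a stage factor and was placed with the factor whose CPM was highest relative to the 90th percentile of that factor in its library. UMIs were summed into 16 counts per gene (7 stages and dpn-negative cells in 2 libraries) and tested in edgeR 4.0.16 (R 4.3.3) with TMM, its filter on low counts and a quasi-likelihood fit, with 7 residual degrees of freedom, a common dispersion of 0.0234 and Benjamini-Hochberg adjustment over 7883 genes (threshold 0.05). Standard errors were taken from the fold change and its F value. The library was a block, since each library of pooled larvae gives every group and the study corrected for the experiment. Library differences of genes correlated between groups with coefficients of 0.012 to 0.618 (median 0.246). Cells are not replicates, and each library gives 1 sum per group. The p-values therefore rest on how far the differences between groups disagree between the 2 libraries. The stages were set from the same cells that were tested, by factors that are not among the 36 genes.

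Fold changes with errors are given for the called genes with the 6 highest and 6 lowest values of a comparison, and levels per stage for the ends of each role. Alternatives were DESeq2 1.42.0, RLE size factors, no filter, no block, a 20% mitochondrial limit, stricter NB definitions, other stage thresholds, removal of the deepest 5% of cells, thinning to 2000 UMIs and each library alone.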

Additional observations from a re-analysis of the deposited data

Results flagged for a closer look

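Cells with a dpn UMI that were set aside for a mitochondrial share of 10% or more are in none of the comparisons, yet they held UMIs of the 36 genes above the level of dpn-negative cells. Their summed level was 3770 CPM over 2836 cells in library 1, against 2346 CPM in dpn-negative cells, and 3480 CPM over 229 cells in library 2, against 2210 CPM. Both values were under those of the NBs that were kept (5338 and 5505 CPM).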

How the results depend on the processing

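No median, and no gene called in a comparison, turned its direction. Of genes not called, tacc in the hth stage (-0.11) was 0.0056 in DESeq2, 0.021 with RLE, 0.031 with a single factor, 0.050 without the deepest cells and 0.59 with thinned cells, and Bub1 in hth (-0.25) was 0.41 with thinned cells. In gcm the uncalled aurA, Bub1, Ndc80, pim, thr, sub and asp changed sign under at least 1 setting, pim from -0.03 to 0.38 with thinned cells. Of the counts and medians under the alternatives, 83 stayed close to the reported value and 33 moved, and 36 of the values of single named genes lost their call. The count of genes lower in NBs was 0 with no filter on low counts, with no replicate block and with a single stage factor per cell. Among all genes 3186 of 12818, 2378 of 7883 and 1772 of 6711 were lower in these fits. In gcm 7 genes were higher and 1 lower (cid) with no replicate block, and 7 higher and 0 lower with thinned cells, while 1 was lower with a 20% mitochondrial limit (tacc) and 1 with a single stage factor (borr). Among all genes 753 of 7883, 225 of 4057, 1072 of 8092 and 585 of 6711 were lower in those fits, in the same order. With thinned cells 11 genes were lower in the hth stage and 10 differed between stages, in a fit of 4057 genes. The replicate block changed no other count by over 1.5 times. The median for NBs was 1.30 in DESeq2, 1.31 with RLE size factors, 1.53 with no filter, 0.98 with the 20% limit, 2.40 with 2 dpn UMIs and no mira, 1.23 without the deepest cells and 1.15 with thinned cells. The median for gcm was 0.14 with the 20% limit, 0.19 with a single factor and 0.18 with thinned cells. The median for hth was -0.83 in DESeq2, -0.83 with RLE, -1.02 with no filter, -0.84 with the 20% limit, -0.78 with mira required, -0.79 with 2 dpn UMIs, -0.92 with 1 UMI of a factor, -1.04 without the deepest cells and -0.80 with thinned cells. The causes were not tested. Thinning also leaves fewer UMIs and genes to test and gives every cell kept the same number of UMIs. With one library left out no residual degrees of freedom remain, and the medians ranged from 1.37 to 1.42 for NBs, from 0.054 to 0.16 for gcm and from -1.03 to -0.96 for hth. RLE size factors moved the median of all genes to -0.16 for NBs and to 0.19 for hth. The split of all genes into higher and lower was then 1544 and 3062 for NBs (2054 and 2753 with TMM), 2735 and 1349 for hth (2334 and 1815) and 1391 and 1230 for gcm (1159 and 1360).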

Other observations

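NBs that could be given no stage (199 and 204 cells) had shallow profiles, with medians of 2447 and 2490 UMIs, and 4727 and 5463 CPM of the 36 genes, between the hth and B-H1 stages. Within NBs thinned to 5000 UMIs (516 and 2143 cells, with 260 and 155 shallower cells left out), the level of a gene and the sum of the other genes of the list had a median Spearman coefficient of 0.16 and 0.13 over the 36 genes, against 0.020 and 0.023 over 3793 and 3913 other genes. Top2 (0.34 and 0.25) and glu (0.33 and 0.21) had the highest values in library 1. The coefficients are weak, the cells share a library, and in sparse counts they are a description only.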
